A study of Mus musculus with 12 samples.

Results

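Hemoglobin transcripts are an RNA trace of blood in a dissected tissue, and 6 genes were followed here to read that trace in each library of mouse lateral choroid plexus. They were chosen by name: the adult alpha globins Hba-a1 and Hba-a2, the adult beta globins Hbb-bs and Hbb-bt, Alas2 and Bpgm. All 6 are among the 35275 genes of the deposited table, and all 6 passed the filter on low counts. The tissue came from adult C57BL6 mice, either Abhd2+/+ (called wt) or Abhd2-/- (called hoz). There are 12 libraries, with 3 in each of 4 groups made by genotype and sex. All animals were killed by CO2 and cervical dislocation in the morning, and the females were in proestrus, the phase of the cycle before ovulation, so the sex comparison is one of males with females in that phase. How the Abhd2 allele was made, whether the animals were perfused and whether a library holds 1 animal or several are not stated by the labels. The p-values therefore measure the spread between these libraries, which may be technical.

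Hemoglobin carries oxygen as a tetramer of alpha and beta chains around heme. Red cells lose their nucleus as they mature, and the youngest circulating ones, the reticulocytes, still hold globin mRNA left from their precursors. Alas2 encodes the erythroid form of 5-aminolevulinate synthase, which starts heme synthesis, while Alas1 does so in other tissues. Bpgm encodes bisphosphoglycerate mutase, which makes 2,3-bisphosphoglycerate, the small molecule that lowers the affinity of hemoglobin for oxygen. The choroid plexus is a sheet of secretory epithelium wrapped around wide, leaky capillaries. In bulk RNA, fewer red cells and less globin RNA per cell cannot be told apart.

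The 4 globin genes sit in pairs of near copies. Hba-a1 (ENSMUSG00000069919) lies on chromosome 11 from 32283511 to 32284465 and Hba-a2 (ENSMUSG00000069917) from 32296489 to 32297298, both on the plus strand of mm10 and 12024 bases apart. Hbb-bt (ENSMUSG00000073940) lies on chromosome 7 from 103812524 to 103813996 and Hbb-bs (ENSMUSG00000052305) from 103826534 to 103828096, both on the minus strand and 12538 bases apart. Each of the 4 has 3 exons in its main transcript of GENCODE release M21. The coding sequences of the alpha pair are 429 bases long and differ at 1 base, and those of the beta pair are 444 bases long and also differ at 1 base. These 4 stretches of coding exon are shown because they hold the only base at which the coding sequences of a pair differ, in capitals at the end of each line:
Hba-a1: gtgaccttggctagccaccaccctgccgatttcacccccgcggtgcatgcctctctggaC
Hba-a2: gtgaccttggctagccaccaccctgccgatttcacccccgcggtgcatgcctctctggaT
Hbb-bs: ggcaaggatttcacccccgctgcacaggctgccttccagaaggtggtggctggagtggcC
Hbb-bt: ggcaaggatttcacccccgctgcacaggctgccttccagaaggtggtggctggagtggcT
Counted from 1 at the A of the start codon, the change from Hba-a1 to Hba-a2 is C381T and the change from Hbb-bs to Hbb-bt is C417T. The reads were pairs of 100 bases. Of the 600 windows of that length in the Hba-a1 transcript, 339 (56.5%) occur unchanged in Hba-a2, and of the 455 windows in Hba-a2 the same 339 (74.5%) occur in Hba-a1. For the beta pair, 331 windows are shared, which is 62.6% of the 529 in Hbb-bs and 54.8% of the 604 in Hbb-bt. The windows stand for single reads, so a mate that tells the copies apart is not allowed for. No source used here says how the authors' counting treated reads that match both copies, so the split within a pair is uncertain. The pair sums do not depend on that split. If such reads were left out, though, the pair sums and the globin levels per length are too low, to an extent that differs between genes. Alpha and beta transcripts share no such window.

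The stretches upstream of the transcription starts are shown to describe where the members are alike and where they differ in sequence. No relation of these sequences to the levels in the libraries was tested. They are the 250 bases before each RefSeq start in GRCm38.p6, read on the gene's own strand, and capitals mark 4 short motifs found in either orientation: GATAA, bound by GATA factors, CACCC, bound by factors of the KLF family, CCAAT, bound by NF-Y among others, and the TATA box letters TATAA. Matches that overlap or touch run together. The deposited gene spans begin upstream of these RefSeq starts.
Hba-a2, chr11:32296242-32296491, plus strand: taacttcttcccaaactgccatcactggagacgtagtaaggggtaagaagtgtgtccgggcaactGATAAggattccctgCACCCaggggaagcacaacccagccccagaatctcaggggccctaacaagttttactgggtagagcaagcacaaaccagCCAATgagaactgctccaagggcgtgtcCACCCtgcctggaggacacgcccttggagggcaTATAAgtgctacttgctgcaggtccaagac
Hbb-bs, chr7:103827929-103828178, minus strand: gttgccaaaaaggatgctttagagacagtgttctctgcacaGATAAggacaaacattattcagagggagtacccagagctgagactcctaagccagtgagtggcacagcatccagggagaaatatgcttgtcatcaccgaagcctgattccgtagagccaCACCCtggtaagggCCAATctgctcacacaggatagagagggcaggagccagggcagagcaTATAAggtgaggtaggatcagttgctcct
Hbb-bt, chr7:103813924-103814173, minus strand: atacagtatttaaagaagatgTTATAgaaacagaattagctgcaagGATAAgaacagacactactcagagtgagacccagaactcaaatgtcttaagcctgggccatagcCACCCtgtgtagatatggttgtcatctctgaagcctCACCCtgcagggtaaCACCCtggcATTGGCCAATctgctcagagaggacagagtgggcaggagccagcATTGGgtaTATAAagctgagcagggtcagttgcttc
Alas2, chrX:150547167-150547416, plus strand: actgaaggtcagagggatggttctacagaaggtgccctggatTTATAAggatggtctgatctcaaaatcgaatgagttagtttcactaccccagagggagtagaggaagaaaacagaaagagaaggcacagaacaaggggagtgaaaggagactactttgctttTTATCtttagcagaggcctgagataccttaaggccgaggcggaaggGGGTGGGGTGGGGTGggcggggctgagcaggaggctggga
Bpgm, chr6:34476106-34476355, plus strand: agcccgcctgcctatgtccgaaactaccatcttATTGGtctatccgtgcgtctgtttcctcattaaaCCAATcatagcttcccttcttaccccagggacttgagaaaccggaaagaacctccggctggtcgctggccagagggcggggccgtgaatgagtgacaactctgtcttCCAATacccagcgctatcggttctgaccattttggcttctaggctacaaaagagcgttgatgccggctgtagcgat
The promoter of Hba-a1 shares an unbroken run of 297 bases with that of Hba-a2, out of the 300 tabulated, and is not printed. The longest run shared by the beta promoters is 14 bases, so the beta pair has near-identical coding sequence but different letters upstream. The 4 globin promoters each hold all 4 motifs, with a TATAA at position -27 to -30. Alas2 holds the GATAA motif, the CACCC motif and the TATAA motif but no CCAAT, and its 3 matches to CACCC lie side by side on the other strand. Bpgm holds 3 CCAAT matches and none of the other motifs. These motifs are common: over 32851 promoters of the same 300 bases, 25.4% hold GATAA on either strand, 57.5% hold CACCC, 37.4% hold CCAAT and 24.9% hold TATAA. A match is a string of letters, not a site shown to be bound.

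Globin reads were present in every library at a low level, and the counts may lack reads that match both copies of a pair. The 4 globins together took 457 reads in wt female 1 and 8125 in hoz male 2, which is 0.00570% and 0.0185% of the summed reads, the lowest and highest shares of the 12. Summed reads per library ran from 5975707 in hoz female 3 to 47903184 in hoz male 3, and 3 reads correspond to 0.502 and 0.0626 CPM there, where CPM is the read count scaled to a common library total. Abhd2, the gene targeted in the study, stood at 2059 ± 243 CPM in wt against 52.6 ± 3.47 CPM in hoz males, and at 2407 ± 39.0 CPM in wt against 54.9 ± 5.61 CPM in hoz females (SD, n = 3). The tissue label held: the 20 choroid plexus epithelium markers all passed the filter and summed to 160728 to 182137 CPM per library. Some libraries stood apart on markers of other cells. The endothelium markers summed to 97.9 CPM in wt male 2 and 286 in wt female 3, the lowest and highest, and the brain and pituitary markers were highest in wt male 1, at 369. The macrophage markers were lowest in hoz female 2, at 76.8.

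Hba-a1, an adult alpha globin, had levels of 12.8, 30.5 and 23.2 CPM in wt and 22.8, 40.3 and 25.7 CPM in hoz among the males. Among the females it had 10.2, 20.5 and 21.6 CPM in wt and 16.1, 23.0 and 25.5 CPM in hoz. The groups overlapped, and within each group the highest library held more than 1.5 times the level of the lowest. Hba-a2, its near copy, followed it at a lower level, with 1.84, 5.48 and 3.93 CPM in wt against 5.50, 8.08 and 4.71 CPM in hoz males. Females had 2.26, 4.43 and 4.47 CPM in wt against 3.65, 3.90 and 5.87 CPM in hoz. For both alpha globins hoz male 2 was the highest library. The lowest was wt female 1 for Hba-a1 and wt male 1 for Hba-a2.

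Hbb-bs, the major adult beta globin of these libraries, had 44.6, 113 and 59.6 CPM in wt against 80.8, 122 and 80.9 CPM in hoz males. In females the levels were 41.0, 71.7 and 94.1 CPM for wt and 52.2, 68.1 and 81.2 CPM for hoz. Its order across libraries was close to that of the alpha globins, with hoz male 2 highest and wt female 1 lowest. Hbb-bt, the other beta globin, had 3.06, 10.96 and 5.68 CPM in wt against 6.94, 10.6 and 7.93 CPM in hoz males. In females the levels were 3.89, 5.55 and 7.95 CPM for wt and 4.15, 3.48 and 6.04 CPM for hoz. The 3 hoz females lay below the 3 hoz males for Hbb-bt and for no other globin.

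Alas2 (ENSMUSG00000025270) lies on chromosome X from 150547375 to 150570638 on the plus strand. It was the scarcest member, with 11 to 173 reads per library. Males had 1.06, 3.87 and 2.02 CPM in wt against 1.44, 3.85 and 2.15 CPM in hoz. Females had 1.38, 1.26 and 2.11 CPM in wt against 1.95, 2.37 and 2.85 CPM in hoz. The highest libraries, wt male 2 and hoz male 2, are also those with the most globin. The gene span overlaps Apex2 and Mir3620 on the opposite strand, and no source used here says if counting was stranded, so reads shared with them cannot be told apart.

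Bpgm (ENSMUSG00000038871) lies on chromosome 6 from 34476207 to 34505613 on the plus strand, and varied less than the other 5. Males had 66.9, 68.1 and 59.2 CPM in wt against 66.7, 62.7 and 63.9 CPM in hoz. Females had 64.9, 64.9 and 69.6 CPM in wt against 73.3, 72.2 and 81.4 CPM in hoz. All 12 libraries lay within 1.37 times of each other, and the 3 hoz females were the 3 highest.

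**Figure D1:**
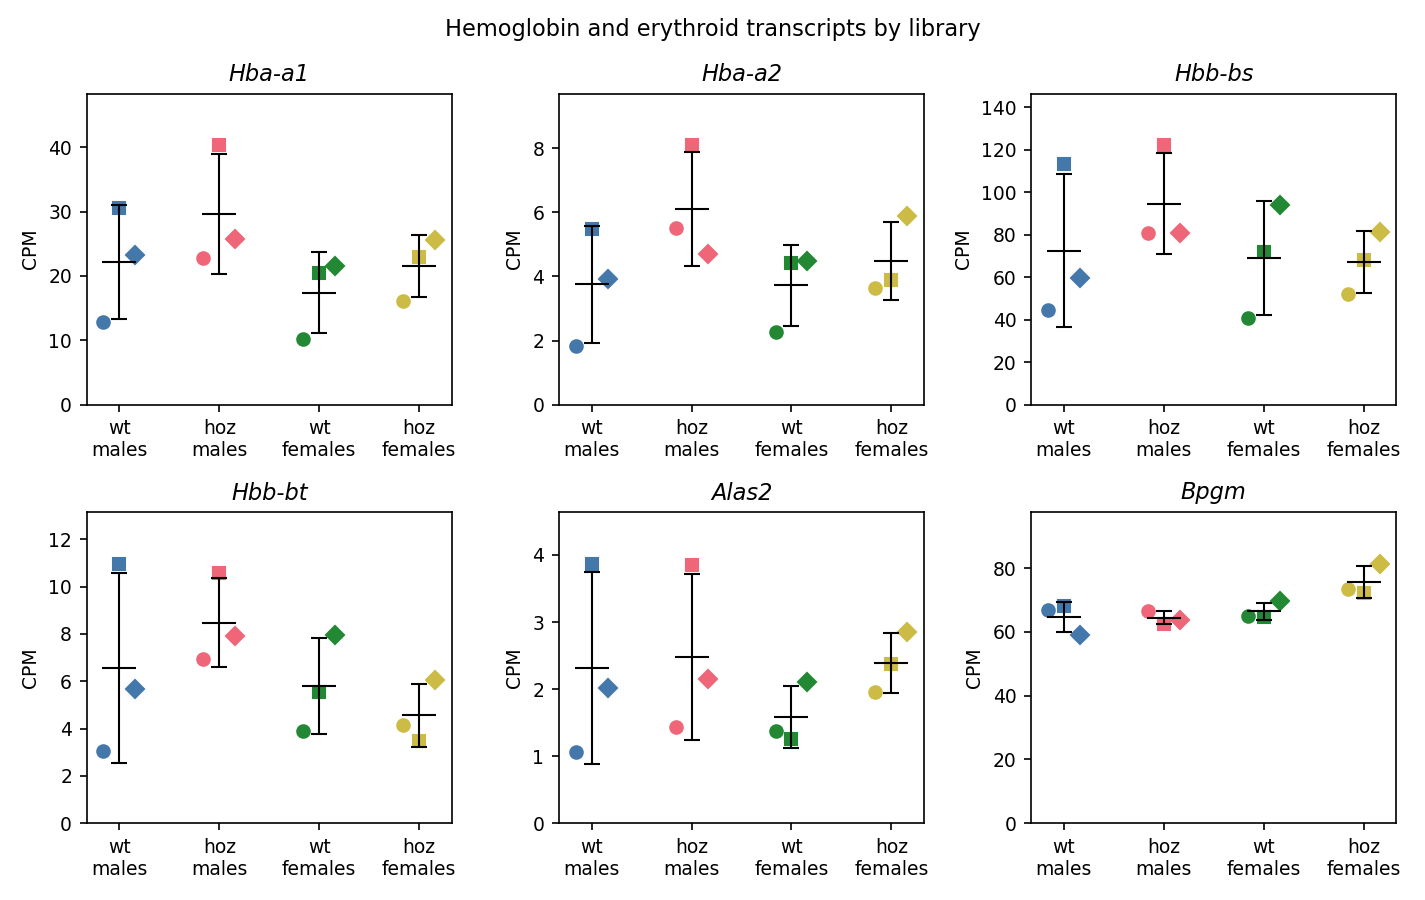
Level of each gene in CPM (y axis, from 0) in the 4 groups of 3 libraries, with circles, squares and diamonds for libraries 1, 2 and 3 of a group, which are not paired across groups. The bar is the mean and the whiskers the SD. The 4 globins and Alas2 vary by up to 3.66 times within a group, while Bpgm lies between 59.2 and 81.4 CPM.

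Over all 12 libraries the coefficient of variation was 34.98% for Hba-a1, 36.8% for Hba-a2, 33.4% for Hbb-bs, 41.3% for Hbb-bt and 42.4% for Alas2, against 8.58% for Bpgm. The ratio of the highest to the lowest library was 3.97, 4.40, 2.98, 3.58 and 3.66 for the first 5 and 1.37 for Bpgm. Counting error alone would give 3.05% for Hbb-bs, 5.58% for Hba-a1 and 18.0% for Alas2, so the spread of the globins exceeds what their read numbers allow for. Within groups the coefficient of variation was 33.4% for Hba-a1 and 34.9% for Hbb-bs, close to the values over all 12 libraries. Most of the spread of these 5 genes thus lay between libraries of the same group.

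Levels between genes were compared per length, on the deposited FPKM. Hbb-bs was the highest member and Alas2 the lowest in 12 of 12 libraries. Hbb-bs ran from 52.5 to 160.3 FPKM with a median of 97.7, Hba-a1 from 14.5 to 58.9 with a median of 32.6, and Bpgm from 27.6 to 36.6 with a median of 29.8. Hba-a1 was above Bpgm in 7 of 12 libraries, so the order of these neighbours depended on the library. Hbb-bt (median 8.46 FPKM) was above Hba-a2 (median 8.10 FPKM) in 7 of 12 and the ranges of both overlapped throughout. Alas2 had a median of 1.03 FPKM. The summed beta globins stood at 2.10 to 3.40 times the summed alpha globins in FPKM. These comparisons make no allowance for globin reads that counting may have left out for matching both copies.

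The make-up of the globin reads varied less than their amount. The alpha pair took 20.3% of the globin reads in wt female 3 and 29.4% in wt male 3, with 95% Wilson intervals of 19.1% to 21.6% and 27.6% to 31.2%. In the wt females the alpha share was 21.7%, 24.4% and 20.3%, and in the hoz females 26.0%, 27.3% and 26.4%. Every hoz female was above every wt female, and no test was made of this difference, which was picked out after the values were seen. The males did not show the same order, with 23.5%, 22.5% and 29.4% in wt and 24.4%, 26.7% and 25.5% in hoz. The Hba-a2 share of the alpha reads ran from 12.5% (interval 9.08% to 17.1%) in wt male 1 to 19.4% (interval 15.5% to 24.0%) in hoz male 1, and these intervals overlap. The Hbb-bt share of the beta reads ran from 4.86% (interval 3.32% to 7.08%) in hoz female 2 to 8.93% (interval 8.10% to 9.83%) in hoz male 3. It was 8.27% ± 0.570 in hoz males and 6.39% ± 1.34 in hoz females (SD, n = 3), without overlap. A two-sided exact permutation test gave p = 0.1, the smallest p that 3 against 3 allows. Groups of 3 without overlap always give this p, so the test adds nothing to the lack of overlap. Only this share, in this pair of groups, was tested. The Wilson intervals cover counting error only. Alas2 gave 12.3 to 25.6 reads per 1000 globin reads.

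**Figure D2:**
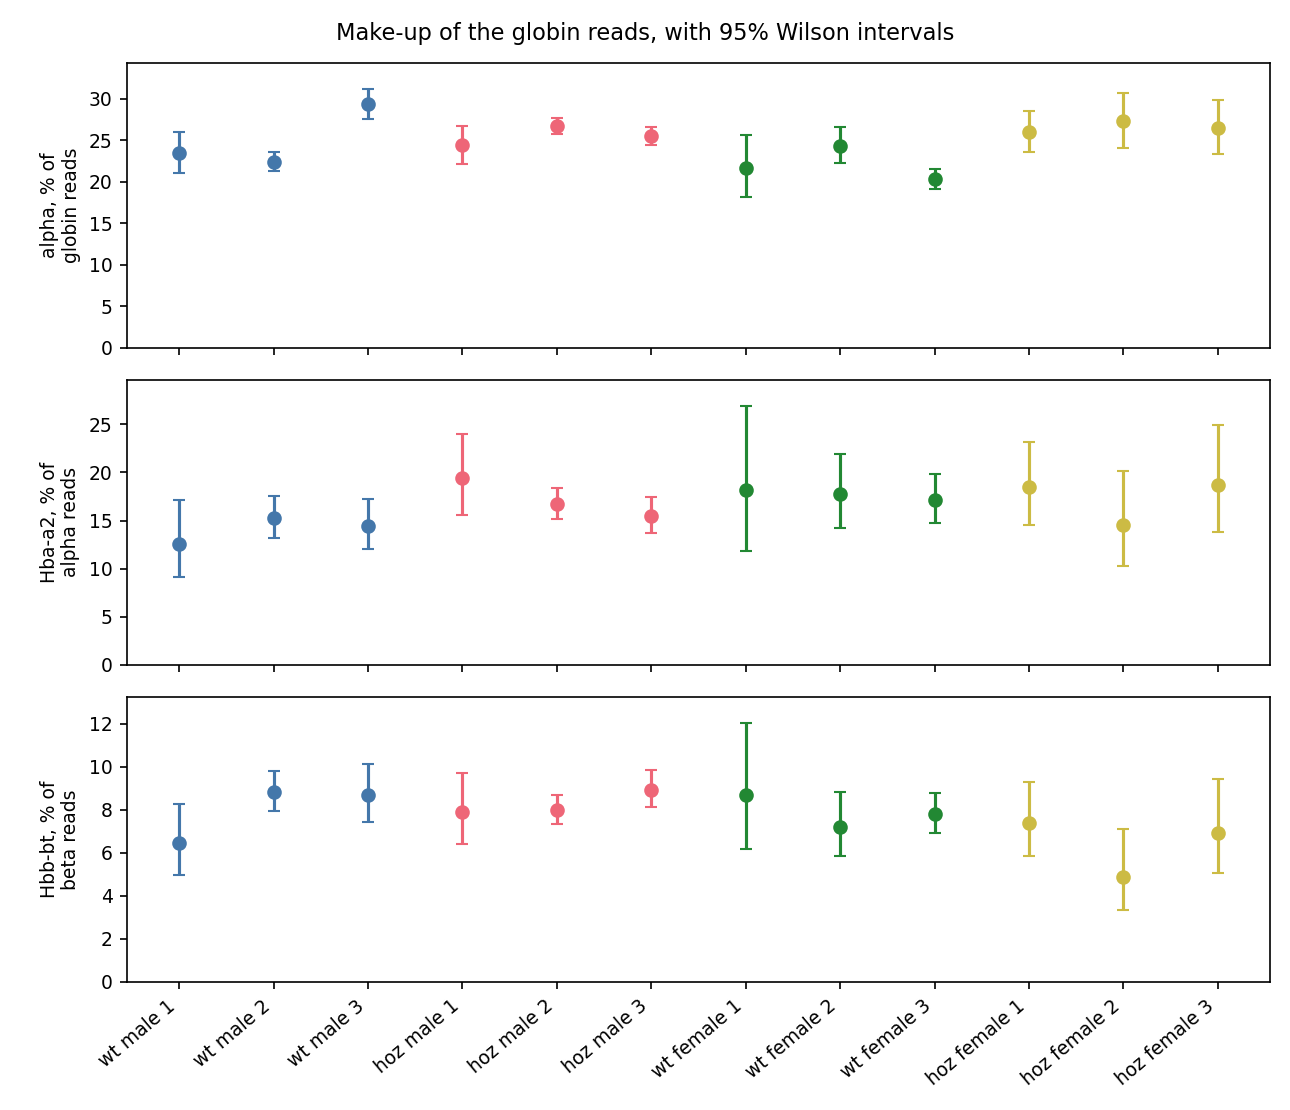
Make-up of the globin reads in each of the 12 libraries (x axis): the alpha globins as a percentage of all globin reads (top), Hba-a2 as a percentage of alpha reads (middle) and Hbb-bt as a percentage of beta reads (bottom), with 95% Wilson intervals. The alpha share lies between 20.3% and 29.4%, and the lowest Hbb-bt share, 4.86%, is that of hoz female 2.

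The globins and Alas2 rose and fell together from library to library, and no such relation passed the test for Bpgm. Of the 15 pairs of members, the 6 pairs among the globins had a Pearson r of log2 CPM between 0.80 and 0.92 over 12 libraries. By Pearson r the correlation was highest for Hba-a1 with Hba-a2 (r = 0.92, rho = 0.80), whose transcripts share windows of read length, and about as high for Hba-a1 with Hbb-bs (r = 0.92, rho = 0.81), whose transcripts share none. By rho it was highest for Hbb-bs with Hbb-bt (0.90) and Hba-a2 with Hbb-bs (0.90). The permutation p for Hba-a1 with Hbb-bs was 2.0e-05, and 0.00030 after Benjamini-Hochberg adjustment over the 15 pairs. For rho it was 0.00225, adjusted to 0.00562. Without wt male 1 and wt female 1, the libraries farthest from the median of Hba-a1, r was 0.84. Alas2 correlated with Hba-a1 at r = 0.80 (rho = 0.87, permutation p = 0.00190, adjusted 0.00407) and with Hbb-bs at r = 0.76 (rho = 0.77, permutation p = 0.00414, adjusted 0.00776). Without the farthest libraries these became 0.76 and 0.65. The correlation of Alas2 with Hbb-bt was 0.69, and it fell to 0.46 without wt male 1 and wt male 2, so it rested in part on those libraries. Bpgm correlated with the other 5 at r between -0.20 and 0.18, none past the threshold, with unadjusted permutation p from 0.534 to 0.939. On deviations from the group means, r was 0.86 to 0.95 among the globins and 0.79 to 0.88 for Alas2 with them. For Bpgm r on these deviations ran from 0.085 with Hba-a1 to 0.36 with Hbb-bs. Without wt male 2 and hoz male 2, the libraries farthest from the median of Alas2, r of Alas2 with Bpgm went from 0.18 to 0.51.

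The same was asked of every gene by fitting its slope on the log2 level of the summed alpha globins beside the 4 group means, with the alpha genes themselves left out as they make up that measure. Hbb-bs rose by 0.95 in log2 per doubling of the alpha globins (SE 0.106, 95% interval 0.72 to 1.18, Benjamini-Hochberg adjusted p = 0.0157 by the quasi-likelihood test of edgeR). It was the single gene called of 13855, or 0.00722% of them, and none was called in the other direction. Without adjustment, 456 genes had a slope above 0 and 258 a slope below 0 at p under 0.05. Hbb-bt had a slope of 1.03 (SE 0.170) and an adjusted p = 0.0978 by the same test, rank 3 of all genes by p. Alas2 had a slope of 1.16 (SE 0.235) and an adjusted p = 0.453, rank 5 by p. Bpgm had a slope of 0.014 (SE 0.0584, interval of -0.11 to 0.14, adjusted p = 0.987). With the beta globins as the measure in place of the alpha globins, the slope was 0.91 for Hba-a1 (SE 0.112), 0.96 for Hba-a2 (SE 0.161), 1.14 for Alas2 (SE 0.215) and 0.055 for Bpgm (SE 0.0569). The interval of Hbb-bs, Hbb-bt and Alas2 on the alpha globins includes 1, the value of a gene that doubles when the alpha globins double.

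Leaving out each library in turn moved the slope of Hbb-bs between 0.81 and 1.03, that of Hbb-bt between 0.80 and 1.12, that of Alas2 between 0.998 and 1.37 and that of Bpgm between -0.026 and 0.065. The call of Hbb-bs was lost without wt male 1, any of the 3 hoz males, wt female 1, hoz female 1 or hoz female 3, with adjusted p between 0.0551 and 0.192 by edgeR. Without wt male 2 the number of genes called went from 1 to 161, both beta globins among them. In wt male 2 the globins summed to 160.3 CPM, the second highest of the 12, while its endothelium markers were the lowest.

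**Figure D3:**
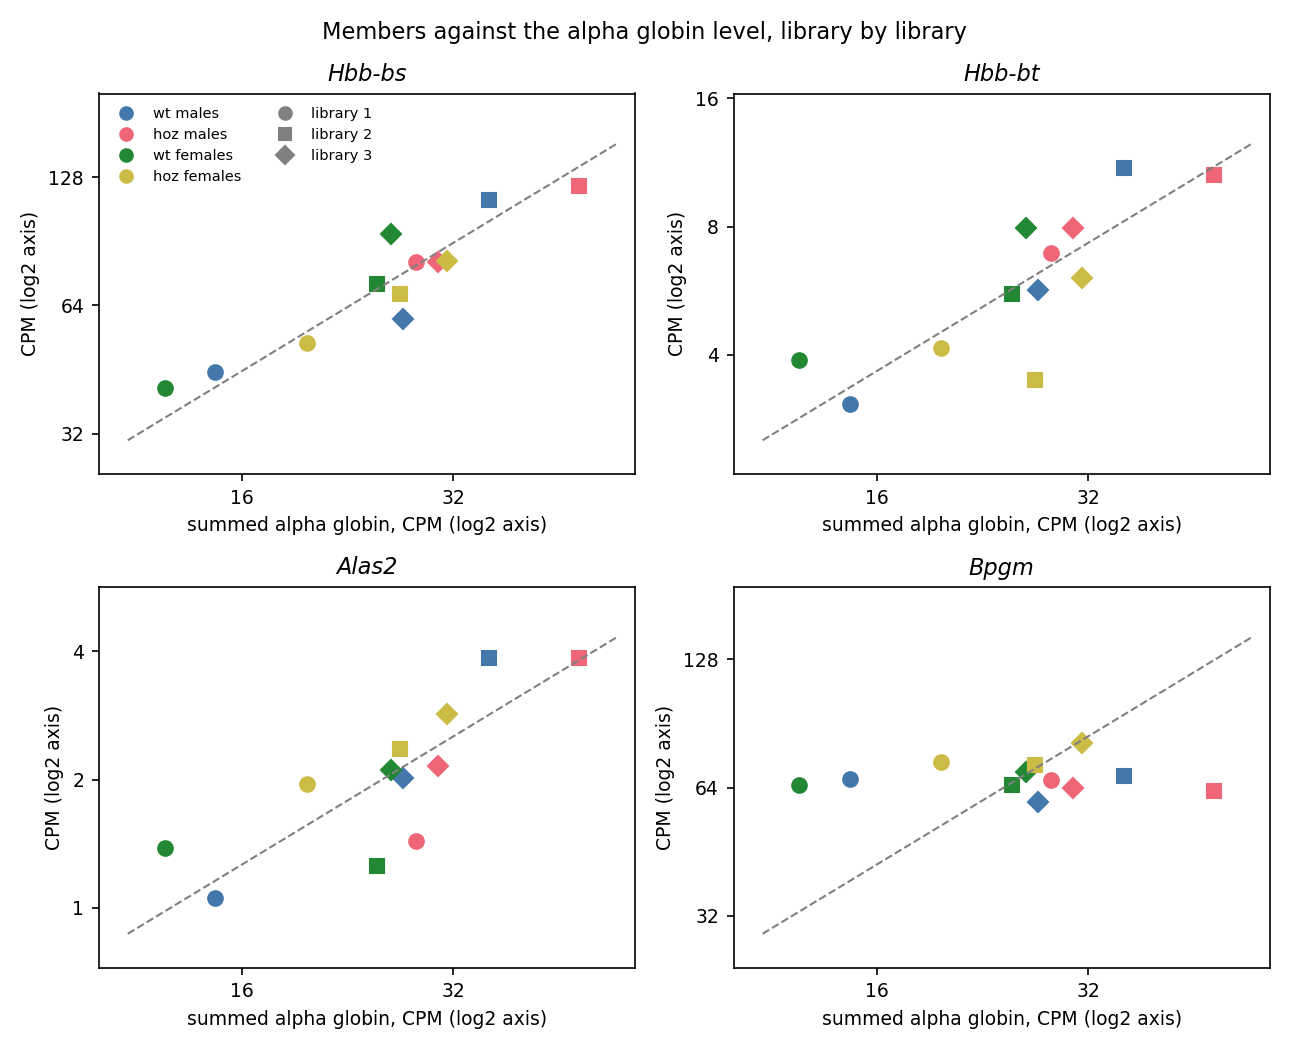
Level of Hbb-bs, Hbb-bt, Alas2 and Bpgm (y axis, CPM, log2 scale) against the summed alpha globins (x axis, CPM, log2 scale) in the 12 libraries, coloured by group. The dashed line is not a fit: it is a proportional rise through the mean of each gene. Hbb-bs, Hbb-bt and Alas2 follow the line, and Bpgm stays level across a range of 12.4 to 48.4 CPM of alpha globin.

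Depth did not pass a test of relation with the amount of alpha globin, which does not show that they are unrelated. The log2 CPM of the summed alpha globins had r = 0.44 with log2 summed reads over 12 libraries (permutation p = 0.159) and rho = 0.33 (permutation p = 0.295). Without hoz male 3 and hoz female 3, the libraries farthest from the median depth, r was 0.60. The part of depth in the globin values was not tested.

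Several other genes specific to red cells and their precursors had few or no reads. Of 38 listed red cell and erythroid genes beyond the members, 34 were matched by symbol and 12 passed the filter on low counts. Slc4a1, the band 3 anion exchanger of the red cell membrane, had 0 to 16 reads per library and 55 in all. Klf1, a transcription factor of erythroid precursors, had 43 reads in all, and Gata1, the erythroid and megakaryocyte GATA factor, had 5. Hba-x and Hbb-bh1, embryonic globins, and Hbb-bh2, another gene of the beta cluster, had 0 reads in each of the 12 libraries. Other genes of the list were well measured, and which cells gave their reads was not tested. Car2, carbonic anhydrase 2, stood at 596 to 705 CPM, Sptb, a spectrin beta chain, at 148 to 207 and Fech, ferrochelatase, at 83.1 to 94.2. The slope on the alpha globins was -0.031 for Car2, 0.074 for Sptb and -0.014 for Fech, and none of the 12 was called. Their median slope was 0.056 with 8 of 12 above 0, against -0.0056 and 47.8% for all genes tested.

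No gene that makes or clears heme and none of glycolysis was called on the alpha globin slope. Of the 11 heme synthesis genes tested, 4 lay above 0 and the median slope was -0.026, against 47.8% and -0.0056 for all genes tested. Alas1, the counterpart of Alas2 outside red cells, ran from 137 to 170.2 CPM with a slope of -0.073. Of 18 genes of heme clearance and iron handling, 6 lay above 0, with a median of -0.016. Hmox1, heme oxygenase 1, which breaks heme down, had a slope of -0.032. Of the 15 genes of glycolysis and its 2,3-bisphosphoglycerate side branch, 2 lay above 0, with a median of -0.036. Among them Pgam1, the phosphoglycerate mutase related to Bpgm, had a slope of -0.022 and ran from 118 to 135.6 CPM. Bpgm, with a slope of 0.014, lay among these genes.

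Markers of blood vessels had mostly positive slopes on the globins, and none was called with all 12 libraries in the fit. Of the 20 endothelium genes tested, 17 had a slope above 0 with a median of 0.40, and of the 12 mural cell genes, which mark pericytes and smooth muscle, 12 did with a median of 0.41. Of 19 macrophage genes 16 did, with a median of 0.22. The 20 choroid plexus epithelium genes had 12 above 0 and a median of 0.0087. Over all genes tested, 47.8% lay above 0, with a median of -0.0056. The platelet and megakaryocyte list had 3 of 6 above 0. None of the 18 lymphocyte and granulocyte genes passed the filter, and their summed level was 0.592 to 2.64 CPM per library. The vascular medians moved most with 2 libraries. Without wt male 2 the median slope was 0.86 for endothelium and 0.85 for mural cells, and without hoz male 2 it was 0.15 and 0.098. Of the 161 genes called without wt male 2, 4 were of the endothelium list and 1 of the mural cell list. The macrophage median ran from 0.10 without hoz male 2 to 0.36 without hoz female 1. In the fit of all 12 libraries each vascular median lay below the slopes of Hbb-bs, Hbb-bt and Alas2. Without wt male 2 this order did not hold for Hbb-bt, whose slope of 0.80 lay below the endothelium and mural cell medians. The part of vessel content in the globin level was not tested.

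**Figure D4:**
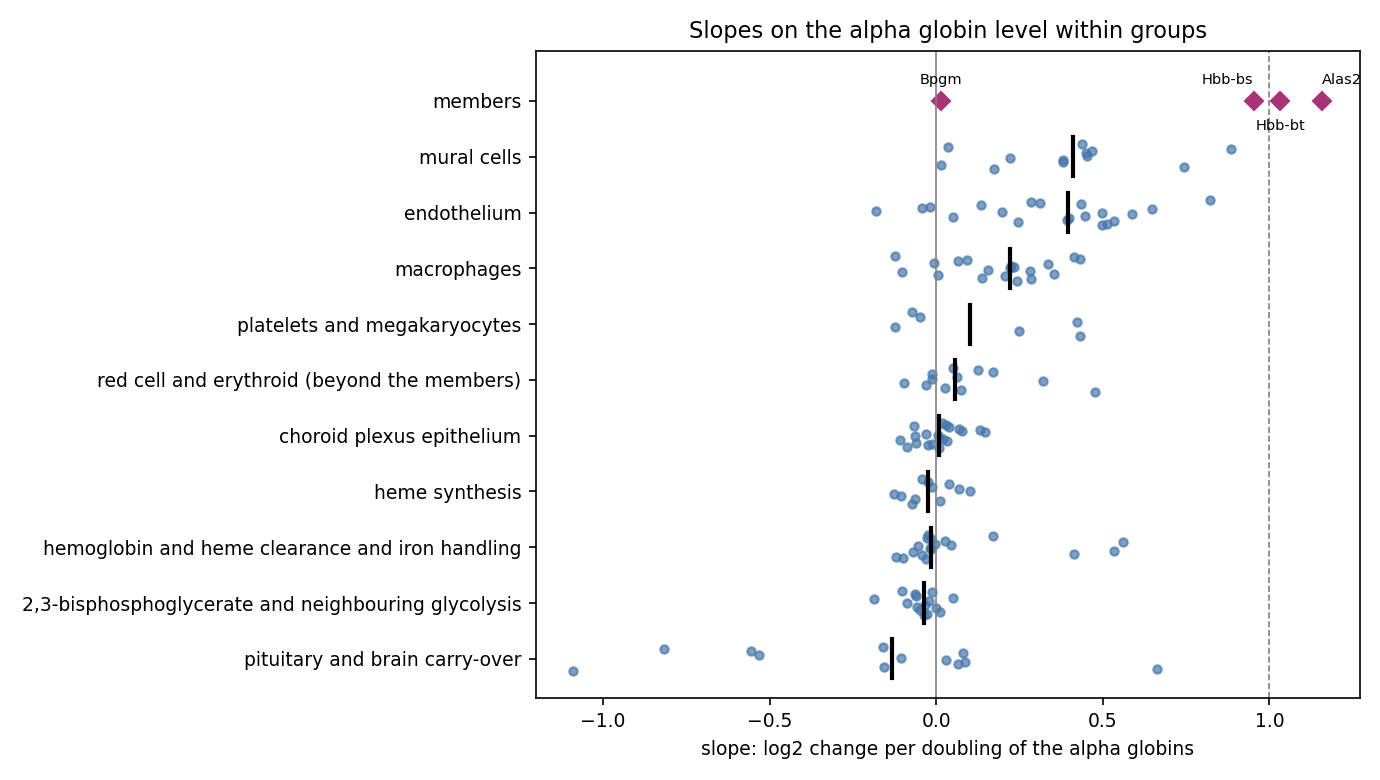
Slope of single genes on the alpha globin level (x axis, log2 change per doubling, fitted within groups) for 4 members (diamonds) and for the genes of 10 lists (points, with the median as a bar). A solid line marks 0 and a dashed line 1. Hbb-bs, Hbb-bt and Alas2 lie at 0.95 to 1.16, while the medians of the lists lie between -0.13 and 0.41.

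Among genes outside the members, those with the pattern most like the summed alpha globins over the 12 libraries were Zfp236 (Pearson r of log2 CPM 0.91), Zfp809 (0.90), Zfp746 (0.89), Gm9938 (0.88), Atf1 (0.87), Gm20645 (0.87), Plcd3 (0.85) and Zfp507 (0.85), out of 12554 genes ranked. On the same measure Hbb-bs had 0.93, above all 12554, while 12 of these genes ranked above Hbb-bt (0.81) and 17 above Alas2 (0.80). Zfp236 had a slope of 0.26 per doubling, against 0.95 for Hbb-bs. These genes are named only for their likeness over the same 12 libraries.

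The genotype comparison asked whether loss of Abhd2 went with another amount of these transcripts. In males no member was called, against 0.00722% of all 13857 genes. That share is 1 gene, Abhd2, whose log2 fold change was -5.28 (SE 0.0979, adjusted p = 1.36e-15 by edgeR). Hba-a1 stood at 29.6 ± 9.35 CPM in hoz and 22.2 ± 8.90 in wt males, and Hbb-bs at 94.5 ± 23.8 and 72.5 ± 36.2 (SD, n = 3). The nearest to a difference was Hba-a2, at 6.10 ± 1.76 against 3.75 ± 1.83 CPM, with a log2 fold change of 0.68 (95% interval -0.060 to 1.41) and an adjusted p = 0.9999 by edgeR. The libraries of the groups overlapped for all 6 members. The intervals leave room for sizeable differences. That of Hbb-bs, with an estimate of 0.38, ran from -0.53 to 1.28, and that of Bpgm, with an estimate of -0.0095, ran from -0.15 to 0.13. Single libraries moved these estimates. Hba-a2 had 0.38 without hoz male 2 and without wt male 1, and 1.06 without wt male 2. Hbb-bs had 0.13 without wt male 1, 0.14 without hoz male 2 and 0.86 without wt male 2. Alas2, at 0.13 with all libraries, had -0.34 without hoz male 2 and 0.73 without wt male 2, so its direction depended on the library left out.

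In females no member was called, against 0.0144% of all genes, which is Abhd2 and Ddx17. Bpgm stood at 75.7 ± 4.99 CPM in hoz and 66.5 ± 2.74 in wt females (SD, n = 3), and each hoz female was above each wt female, as were 7.64% of all genes tested. Its log2 fold change was 0.18 (SE 0.0707, adjusted p = 0.659 by edgeR). Hba-a1 had 21.5 ± 4.86 against 17.4 ± 6.31 CPM and Hbb-bs 67.2 ± 14.5 against 68.9 ± 26.7, with log2 fold changes of 0.19 and -0.11. Hbb-bt had a log2 fold change of -0.47 (SE 0.481) and Alas2 one of 0.47 (SE 0.501), so these estimates had opposite signs with errors of the same size. Markers of other cells were mostly lower in hoz females in the same comparison, without a call by edgeR. Of the endothelium genes 1 of 20 lay above 0 with a median log2 fold change of -0.33, of the mural cell genes 0 of 12 with a median of -0.39, and of the macrophage genes 1 of 19 with a median of -0.43, against 50.7% of all genes. Their part in the members' values was not tested. Leaving out single libraries moved Hbb-bs in females from -0.34 (without wt female 1) to 0.19 (without wt female 3), and Alas2 from 0.32 (without wt female 2) to 0.82 (without wt female 3). Over both sexes no member was called, again against 0.0144% of all genes, here Abhd2 and Scd1. The estimates ran from -0.054 for Hbb-bt to 0.41 for Hba-a2. Ddx17 and Scd1 are named here because they make up these shares, and were picked out after their values were seen.

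The 2 pairs taken as sums gave the same picture. The alpha pair had a log2 fold change of 0.46 in males (SE 0.365) and 0.19 in females (SE 0.421), and the beta pair 0.38 (SE 0.398) and -0.13 (SE 0.430), none called. The interaction of sex and genotype called none of the members, against 0.00722% of all genes. It was -0.82 for Hbb-bt (SE 0.617) and 0.19 for Bpgm (SE 0.0972), each with an adjusted p = 0.9999 by edgeR.

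Between the sexes, no member was called in wt mice, against 2.63% of all genes. Hba-a1 stood at 17.4 ± 6.31 CPM in females and 22.2 ± 8.90 in males, and the libraries overlapped for all 6. In hoz mice no member was called either, against 2.68% of all genes. Hbb-bt was lower in each hoz female than in each hoz male, at 4.56 ± 1.33 against 8.48 ± 1.88 CPM (SD, n = 3), as were 10.0% of all genes tested. Its log2 fold change was -0.96 (SE 0.458, 95% interval -1.98 to 0.065, adjusted p = 0.383 by edgeR). The authors' deposited table does call Hbb-bt there, with a log2 fold change of 0.48 for male over female and an adjusted p of 0.0059. It is among 458 genes called of 12353 with an adjusted p in that table. The authors' fold changes there for Hba-a1, Hba-a2 and Hbb-bs, at 0.18, 0.22 and 0.23, were also smaller in size than those here. The sizes of the 2 sources are therefore not comparable. With the hoz libraries fitted alone, edgeR called Hbb-bt at an adjusted p = 0.0308, and the same fit called no other member. The share of all genes called in that fit was not counted. Between genotypes in females, fitting only the groups compared called 39 genes, against 2 with all libraries in the fit. The other 3 globins had log2 fold changes of -0.53 (Hba-a1), -0.51 (Hba-a2) and -0.53 (Hbb-bs) with SE of 0.398, 0.378 and 0.420. Whichever single library was left out, the log2 fold change of Hbb-bt stayed between -1.15 and -0.75. The summed beta pair, most of whose reads are of Hbb-bs, had a log2 fold change of -0.56 (SE 0.422, adjusted p = 0.640 by edgeR).

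Bpgm was higher in each hoz female than in each hoz male, as were 10.8% of all genes tested, at 75.7 ± 4.99 against 64.4 ± 2.05 CPM (SD, n = 3). Its log2 fold change was 0.23 (SE 0.0695) with an unadjusted p of 0.00432 and an adjusted p = 0.103 by edgeR. Without wt male 3, a library outside this comparison that lends to the estimate of spread, the adjusted p was 0.0490 by edgeR. The share of all genes called between the sexes in that fit was not counted. In the authors' deposited table the adjusted p of Bpgm was 0.129. In the 6 comparisons together, edgeR gave an unadjusted p under 0.05 to 1 member (Bpgm) between the genotypes in females and to 1 (again Bpgm) between the sexes in hoz. DESeq2 and limma voom gave one to Bpgm in the same comparisons and also to Hba-a2 in hoz against wt males, and limma voom to Hbb-bt between the sexes in hoz as well. After adjustment DESeq2 and limma voom called no member in any of the 6 comparisons. However, DESeq2 gave no adjusted p to Hba-a1, Hba-a2, Hbb-bt and Alas2 between the genotypes in females. It gave none to Alas2 between the genotypes over both sexes either, so these members could not be called there.

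**Figure D5:**
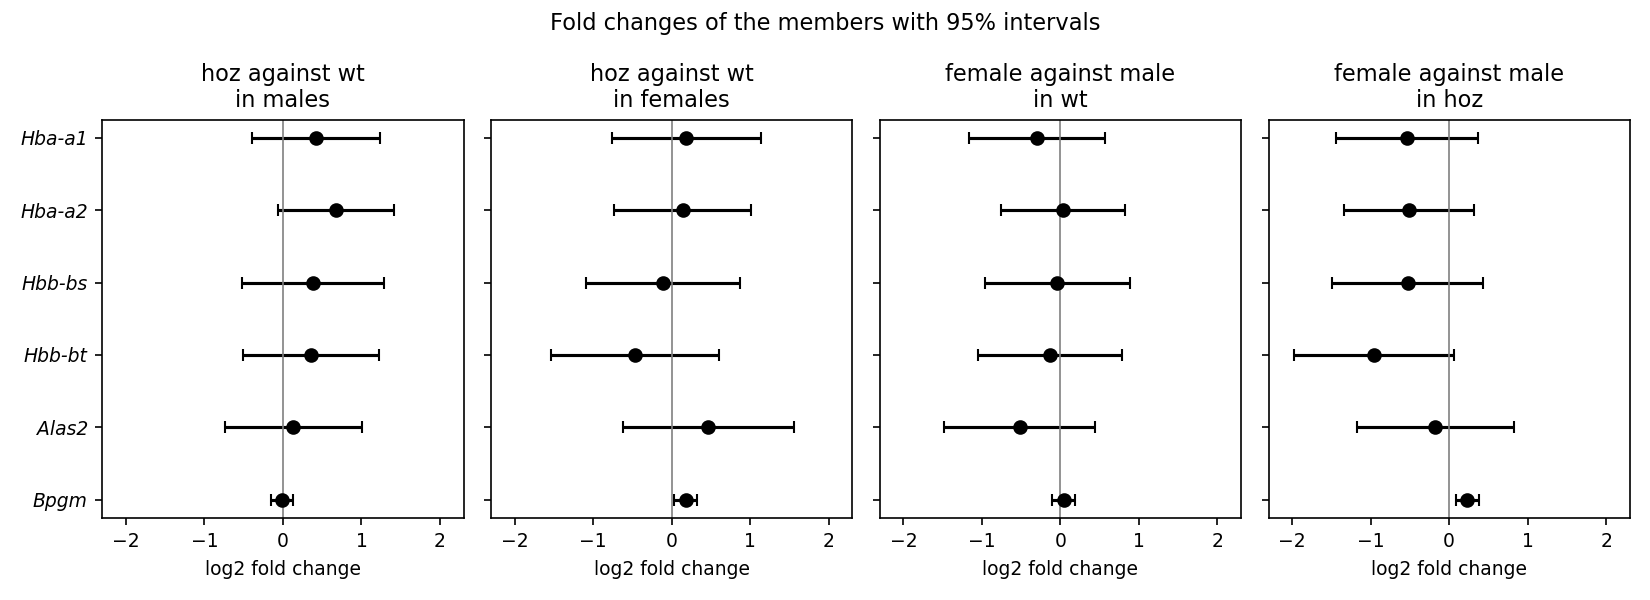
Log2 fold change of each member (x axis) with its 95% interval in hoz against wt males, hoz against wt females, and females against males in wt and in hoz. The intervals of the 4 globins and Alas2 all include 0, and those of Bpgm lie above 0 in hoz against wt females and in hoz females against males, where its adjusted p was 0.659 and 0.103 by edgeR.

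Some genes of the related lists did differ between the sexes while the members did not pass the test. In wt, Ank1, the ankyrin that anchors the red cell membrane skeleton and is also made elsewhere, was higher in females by 0.56 in log2 (SE 0.133, adjusted p = 0.0332 by edgeR). Slc25a37, the mitochondrial iron importer mitoferrin, was higher by 0.45 (SE 0.114, adjusted p = 0.0459). These 2 were the genes called of the 12 of the red cell list, against the 2.63% over all genes, and their slopes on the alpha globins were 0.027 and -0.096. Hmox1 was higher in females of both genotypes, by 0.31 in wt (adjusted p = 0.0464) and 0.41 in hoz (adjusted p = 0.0127), both by edgeR. Ftl1, ferritin light chain, was higher in wt females by 0.30 (adjusted p = 0.0257) and Alad, the second enzyme of heme synthesis, in hoz females by 0.34 (adjusted p = 0.0380). Hk1, hexokinase 1, was lower in wt females by a log2 fold change of -0.32 (adjusted p = 0.0174). Whether these sex differences themselves differ between genotypes was not called for any gene of these lists by the interaction. With all 12 libraries fitted by edgeR, no gene of these lists or of the vascular and macrophage lists was called between genotypes. Of the mural cell list, Vtn was called over both sexes by DESeq2 and by edgeR with no filter on low counts. Pdgfrb was called in females with only the groups compared in the fit. That fit called 39 genes, and DESeq2 called 13 over both sexes. Only the first 12 of each in gene order were looked up, so the rest may hold other genes of these lists. Vtn encodes vitronectin and Pdgfrb a receptor of platelet-derived growth factor. In the comparison of wt females with wt males, markers of other cells were mostly higher in females, without a call by edgeR. Of the endothelium genes 20 of 20 lay above 0 with a median log2 fold change of 0.54, of the mural cell genes 10 of 12 with a median of 0.31, and of the macrophage genes 16 of 19 with a median of 0.34, against 50.7% of all genes. Their part in the sex differences of Ank1, Slc25a37, Hmox1 and Ftl1 was not tested.

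With the alpha globin level added to the fit, the genotype calls over all genes were the same in males (1) and females (2) and went from 2 to 1 over both sexes. Abhd2 was called each time. Scd1, a fatty acid desaturase, had a log2 fold change of -0.61 and an adjusted p = 0.0161 over both sexes without the covariate, and -0.64 and 0.0674 with it, by edgeR. Bpgm in females had a log2 fold change of 0.18 without and 0.17 with it.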

How the data were processed

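RNA of 12 lateral choroid plexus libraries in 4 groups of 3 was read from the authors' table, with groups from the labels. The deposited read count columns hold whole reads per gene, raw and unscaled as the authors counted them, per the file headers. The deposited FPKM columns, per the file headers, equal those reads divided by the deposited gene length and the library total, to a relative difference of at most 4.97e-12. The log2 fold change and p-value columns are the authors' own, per the file headers. Per the submitters' processing notes the build is mm10, and STAR 2.5, HTSeq 0.6.1, edgeR 3.16.5, DESeq2, TopHat, STAR-Fusion and CASAVA are named with no step. The libraries were oligo dT selected and read as pairs of 100 bases, per the labels' protocols.

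Tests here were run with edgeR 4.0.16 in R 4.3.3, beside DESeq2 1.42.0 and limma 3.58.1. edgeR's filterByExpr left 13857 genes, scaled by TMM, and CPM use the scaled totals. Genes were tested with edgeR's robust quasi-likelihood test on 4 group means (8 residual degrees of freedom), two-sided, with Benjamini-Hochberg adjustment over all genes tested and a threshold of 0.05. The test was also run on simulated counts, in which the alpha globins carried counting error only, and the outcome is not reported here. Slopes used the log2 CPM of Hba-a1 plus Hba-a2, with a pseudocount of 0.5, and an interval or error does not include the counting error of that measure. Correlations used 100000 resamples. Promoters are from RefSeq in GRCm38.p6 and matched 6 of 6 members, and transcripts are from GENCODE release M21.

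The members and lists were chosen with earlier results of these data known. The naming rule takes the members, Abhd2, called genes on the slope with at least 1 CPM, the 8 genes most like the alpha globins, and of each list up to 4 called genes and 4 levels, and for the red cell list any gene past the filter. Klf1, Gata1, Hba-x, Hbb-bh1, Hbb-bh2, Fech, Sptb, Car2 and Pgam1 were named for their roles or levels after their values were seen. Some genes of the red cell list are not reported here by name. Alternatives were scaling, filters, other tests, the libraries in the fit, each library left out and the globins summed.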

Additional observations from a re-analysis of the deposited data

How the results depend on the processing

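No paired analysis was possible because the labels give no replicate numbers that link libraries across groups. Of 118 alternatives for the count of members called, 2 had a member called: Hbb-bt between the sexes in hoz with only the groups compared in the fit (1 member), and Bpgm in the same comparison without wt male 3 (range 0 to 1 over single libraries left out). Of 691 member fold changes under an alternative, these 2 were past the threshold. In the 118 counts, a member without an adjusted p from DESeq2 stood as not called. The genotype comparison called 1 gene in males, 2 in females and 2 over both sexes. In that order the counts were 2, 6 and 5 with no filter on low counts, and 4, 6 and 13 with DESeq2. With only the groups compared in the fit the count was 39 in females. With the alpha globin covariate the count was 1 over both sexes. Over single libraries left out the counts ran from 1 to 8 in males, from 1 to 5 in females and from 1 to 9 over both sexes. The slope on the alpha globins called 1 gene, 6 with DESeq2, 4 with no filter and 0 to 161 over single libraries left out. Leaving out together wt male 1, wt female 3 and hoz female 2, chosen after seeing the data because their markers stand apart, gave 1 gene called in females, 1 over both sexes and 0 on the slope, where Hbb-bs kept a slope of 0.95 with an adjusted p of 0.734 by edgeR on 9 libraries. The cause of these moves was not tested. Depth limits Alas2 most, with as few as 11 reads in a library.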

Other observations

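Of 4 other globins listed, 2 passed the filter on low counts. Cygb, cytoglobin, a globin of connective tissue cells, ran from 3.62 to 13.3 CPM and had a slope on the alpha globins of 0.44, close to the medians of the vascular lists and not called by edgeR (adjusted p = 0.919). Ngb, neuroglobin, had 25 reads in all and Mb, myoglobin, had 15. Tfrc, the transferrin receptor, ran from 9.78 to 60.4 CPM, with a slope of -0.015 on the alpha globins. Cp, ceruloplasmin, a copper enzyme that oxidises iron, ran from 7.80 to 43.8 CPM with a slope of 0.56 (adjusted p = 0.919 by edgeR). Slc40a1, ferroportin, the cell's iron exporter, ran from 0.592 to 1.53 CPM with a slope of 0.53 (adjusted p = 0.919 by edgeR). Pf4, a platelet chemokine that is also on the macrophage list, ran from 0.336 to 1.19 CPM with a slope of 0.43 (adjusted p = 0.919 by edgeR). Of the platelet list, 3 of 6 genes tested had a slope above 0, Pf4 among them, and the others lay below. Tfrc, Cp and Slc40a1 were picked out after their values were seen.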
